A study of Mus musculus with 15 samples.

Results

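The genes described here are 34 of the 24421 genes counted in the series. They comprise 20 cytosolic aminoacyl-tRNA synthetase genes, 6 regulators and stress effectors of the ATF4 pathway (Atf4, Atf5, Trib3, Chac1, Sesn2 and Ddit4) and 8 enzymes of amino acid and folate-dependent synthesis (Asns, Psat1, Phgdh, Psph, Shmt2, Mthfd2, Aldh18a1 and Pycr1). The choice was made by name, as a pathway, but with earlier results of these data known. All 34 were in the table, and all 34 passed the filter on low counts. The cells were MAP cells, mouse adipocyte progenitors immortalized as a line, and the 15 libraries fell into 5 groups of 3. Every group, vehicle included, had first been differentiated at confluency for 2 days in insulin, 500 µM isobutylmethylxanthine (an inhibitor of cAMP breakdown), 1 µM dexamethasone (a glucocorticoid) and 1 µM rosiglitazone, and then kept in insulin and rosiglitazone for a further 2 days. At day 7 to 8 they were given vehicle, rosiglitazone over 3 days (Rosi3D) or forskolin, which activates adenylyl cyclase and so raises cAMP. Forskolin lasted 4 h in FSK4h, 1 day in FSK1D and 3 days in FSK3D. Rosiglitazone activates PPARγ, the nuclear receptor that drives fat cell differentiation. The sources used here give neither the treatment doses nor the harvest time of the vehicle cells. Time in culture may therefore differ between vehicle, 4 h, 1 day and 3 days, and it cannot be told apart from treatment.

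ATF4 is a transcription factor whose protein is made mainly when phosphorylation of the initiation factor eIF2 slows general translation, as in amino acid shortage or stress of the endoplasmic reticulum. It binds composite C/EBP-ATF response elements and raises genes that import, make and charge amino acids, among them Asns, the serine synthesis enzymes and many cytosolic tRNA synthetases. Aminoacyl-tRNA synthetases join each amino acid to its tRNA before translation. Several of them form a multisynthetase complex in the cytosol. In fat cells cAMP acts through protein kinase A and the factor CREB, which binds the cAMP response element. RNA levels do not measure ATF4 protein or tRNA charging.

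Library totals ran from 14056200 to 56282582 counts. The ribosomal RNA gene Rn45s took 8.50 to 8.57% of counts in vehicle and 4.38, 4.15 and 5.79% in FSK3D S10, S11 and S12. Levels are CPM, counts relative to a library size scaled by edgeR's TMM factors, and differences are log2 fold changes ± standard error (SE). A gene is called at an adjusted p under 0.05 over the 14421 genes tested with edgeR. Libraries carry a running number from S1 to S15, and values within a group are given in that order. No label states whether a group's libraries came from separate cultures, so the p-values measure the spread between libraries, which may be technical. The 8 mature adipocyte markers, such as Adipoq and Plin1, were all detected and summed to 8261 to 9573 CPM in vehicle. They were lower at 1 day of forskolin (6716 to 7365 CPM) and higher at 3 days of forskolin (14457 to 14568 CPM) and of rosiglitazone (19195 to 20446 CPM). The 8 progenitor markers, of which 7 passed the filter on low counts, summed to 742 to 793 CPM in vehicle, 943 to 989 CPM at 1 day of forskolin and 383 to 425 CPM with rosiglitazone. Markers of macrophages (6 genes), endothelium (4), lymphocytes (3) and skeletal muscle (3) each summed to at most 9.23 CPM in any library. In such bulk libraries fewer cells of a type and less RNA per cell cannot be told apart, and the part of these shifts in the results below was not tested.

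The promoters of 4 genes are shown because these genes had the largest rise of any synthetase (Eprs), the next largest (Tars) or the largest rise of any gene of the 34 (Ddit4) after 4 h of forskolin, or are a textbook target of ATF4 (Asns). Each is the 250 bases before the RefSeq start site on GRCm38.p6, written 5′ to 3′ on the gene's strand. Capitals mark every match, on either strand, to TGACG, the core of the cAMP response element, or to TGATGNAAN, the C/EBP-ATF response element.
Eprs (chr1:185362794-185363043, plus strand): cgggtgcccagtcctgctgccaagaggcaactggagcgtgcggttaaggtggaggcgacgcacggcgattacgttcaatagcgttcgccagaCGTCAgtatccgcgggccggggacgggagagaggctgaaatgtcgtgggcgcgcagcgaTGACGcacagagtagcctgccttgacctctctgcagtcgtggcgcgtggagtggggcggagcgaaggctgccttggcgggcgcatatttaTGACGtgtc
Tars (chr15:11399659-11399908, minus strand): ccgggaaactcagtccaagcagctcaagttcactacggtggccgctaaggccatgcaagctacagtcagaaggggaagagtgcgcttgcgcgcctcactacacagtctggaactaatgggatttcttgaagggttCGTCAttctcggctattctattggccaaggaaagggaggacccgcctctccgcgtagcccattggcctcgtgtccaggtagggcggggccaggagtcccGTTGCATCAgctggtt
Asns (chr6:7693210-7693459, minus strand): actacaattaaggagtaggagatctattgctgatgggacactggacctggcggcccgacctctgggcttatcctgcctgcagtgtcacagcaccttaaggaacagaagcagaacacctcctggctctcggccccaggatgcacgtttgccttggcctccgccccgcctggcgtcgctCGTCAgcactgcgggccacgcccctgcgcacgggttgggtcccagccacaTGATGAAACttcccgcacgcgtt
Ddit4 (chr10:59951771-59952020, minus strand): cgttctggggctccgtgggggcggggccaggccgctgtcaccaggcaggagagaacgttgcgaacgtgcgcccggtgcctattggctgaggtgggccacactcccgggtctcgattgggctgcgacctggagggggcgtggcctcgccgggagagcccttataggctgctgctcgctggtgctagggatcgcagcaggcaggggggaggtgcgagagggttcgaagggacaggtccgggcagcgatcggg
The Eprs window held 3 matches to TGACG. Of 32851 promoter windows of the same length 0.688% held at least 3 and 17.8% at least 1. Tars and Asns each held 1 match to TGACG and 1 to TGATGNAAN, and the C/EBP-ATF element of Asns read TGATGAAAC. That element was in 3.44% of all windows. The Ddit4 window held neither motif. RefSeq promoters were found for 27 of the 34 genes. Of these 9 held TGACG (Asns, Atf4, Chac1, Eprs, Farsb, Mars, Tars, Trib3 and Yars) and 6 held TGATGNAAN (Aars, Asns, Chac1, Gars, Pycr1 and Tars). None of the 27 held the full palindrome TGACGTCA, which contains TGACG on both strands and was in 1.55% of all windows. A match is a description of these letters and not a measured binding site.

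After 4 h of forskolin 27 of the 34 genes were higher than in vehicle and 0 lower, against 28.4% of all tested genes called higher and 30.7% called lower. The 0 held at an unadjusted p under 0.05 and with DESeq2, and the lowest of the 34 estimates was 0.031. Their median log2 fold change was 0.45, while that of all tested genes was -0.035. Of the synthetases 16 of 20 rose, of the regulators and effectors 5 of 6, and of the synthesis enzymes 6 of 8. Among them 3 rose by at least 2-fold (Eprs, Ddit4 and Mthfd2), against 5.44% of all tested genes. The mean TMM factor was 0.907 in FSK4h and 1.04 in vehicle, and the counts depended on that scaling. With library size alone the median over all genes was -0.23, 21 of the 34 genes were called higher and 4 lower, and higher genes made up 27.3% in place of 48.1% of all calls in the table. The 4 called lower under that scaling were Mars (-0.14), Qars (-0.15), Vars (-0.16) and Psat1 (-0.12), none of which was called in the TMM-scaled fit.

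Eprs, which encodes the synthetase for both glutamate and proline (chromosome 1, 185363044 to 185428360, plus strand), rose most of the synthetases. Its level was 235, 246 and 239 CPM in the vehicle libraries and 784, 790.5 and 784 CPM after 4 h. The groups did not overlap and the 3 FSK4h libraries lay within a few CPM of each other. The rise of 3.27-fold (1.71 ± 0.045, adjusted p = 2.52e-26) was exceeded by 2.25% of all tested genes. By 1 day the level was 254, 254 and 236 CPM, overlapping vehicle (0.046 ± 0.044, adjusted p = 0.437). At 3 days it was 308, 314 and 329 CPM with forskolin and 323, 318 and 344 CPM with rosiglitazone, both above every vehicle library (0.40 ± 0.044 and 0.45 ± 0.044). Per kilobase of the gene length that the authors deposited, Eprs ranked 6 of 20 synthetases in vehicle at 49.5 ± 1.20 RPKM (CPM per kilobase, mean ± SD, n = 3) and 1 at 4 h at 162 ± 0.788. Aars, the alanine enzyme, led in vehicle at 118 ± 3.92 RPKM and stood at 145 ± 5.36 at 4 h, below Eprs by more than the spread between libraries.

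The other 15 synthetases that rose at 4 h did so by 0.14 to 0.78 on the log2 scale. Tars, the threonine enzyme, went from 107, 98.2 and 103 CPM to 181, 178 and 169.9 CPM (0.78 ± 0.050, adjusted p = 1.65e-15). Nars, for asparagine, went from 109, 104 and 110.0 CPM to 176, 189 and 178 CPM (0.75 ± 0.050, adjusted p = 4.61e-15). The next were Iars for isoleucine (0.69 ± 0.044), Yars for tyrosine (0.63 ± 0.060), Rars for arginine (0.54 ± 0.053), Cars for cysteine (0.51 ± 0.066) and Gars for glycine (0.51 ± 0.045). In each of these 7 genes, and in the rest of the 15, every FSK4h library was above every vehicle library on this TMM-scaled level. How many of all tested genes separated in this way was not counted, here or elsewhere in the text. Both subunits of the phenylalanine enzyme rose, Farsb by 0.49 ± 0.057 and Farsa by 0.36 ± 0.061, as did Sars for serine (0.46 ± 0.050), Hars for histidine (0.43 ± 0.074) and Wars for tryptophan (0.35 ± 0.055). The smallest rises were in Aars (0.29 ± 0.047), Lars for leucine (0.28 ± 0.046) and Kars for lysine (0.14 ± 0.050). Those of Aars and Lars were not called with library size alone (0.095, adjusted p = 0.0665, and 0.092, adjusted p = 0.0830). Kars was at -0.051 under that scaling, and its call was lost without vehicle S3 (0.11, adjusted p = 0.0927) or FSK4h S4 (0.13, adjusted p = 0.0580).

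The 4 synthetases not called at 4 h were Dars for aspartate (0.073 ± 0.053), Mars for methionine (0.054 ± 0.045), Qars for glutamine (0.040 ± 0.051) and Vars for valine (0.031 ± 0.059). Dars, Mars and Qars encode members of the multisynthetase complex. Of its 8 synthetases, Eprs among them, 5 rose with a median of 0.21, and of the 12 outside it 11 rose with a median of 0.47. The medians lay closer at later times, at -0.063 inside and -0.039 outside after 1 day of forskolin. After 3 days of forskolin they were -0.067 and -0.080, and with rosiglitazone -0.042 and 0.085. Summed over the 20 genes the level was 2495 to 2565 CPM in vehicle and 3694 to 3807 CPM at 4 h. Without Eprs the sums were 2255 to 2327 and 2910.3 to 3023 CPM, still with no overlap.

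**Figure D1:**
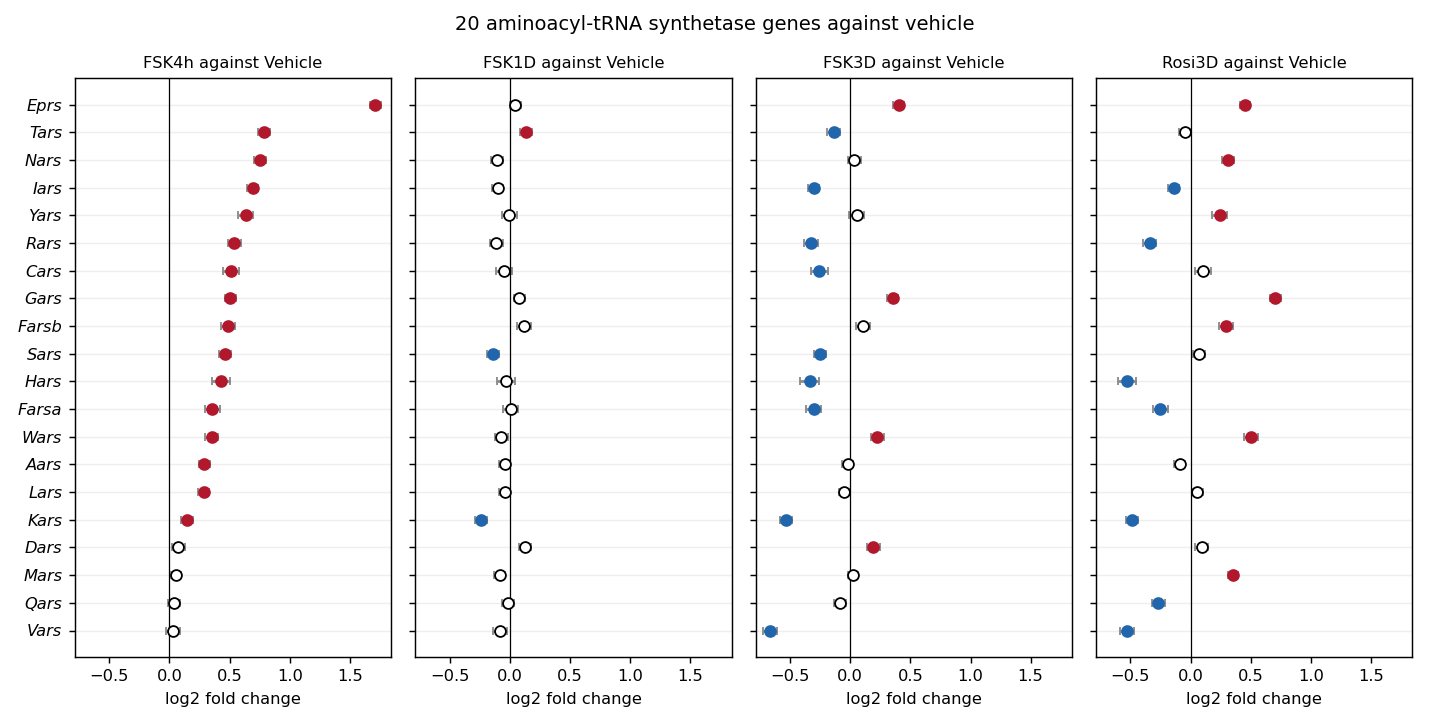
Log2 fold change against vehicle (x axis, error bars ± SE) of the 20 synthetase genes, ordered by their change at 4 h, with red points called higher, blue called lower and white not called. At 4 h 16 genes lie to the right and are called, with Eprs farthest out at 1.71, whereas at 1 day 3 are called and at 3 days genes are called on both sides of 0 (with library size alone, not drawn, 13 are higher and 3 lower at 4 h, and 0 and 6 at 1 day).

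Gene positions are those of GENCODE vM21, whose start sites can differ from RefSeq's. Among the regulators at 4 h, Atf4 itself (chromosome 15, 80255184 to 80257541, plus strand) rose from 124, 114 and 125 CPM to 209, 215 and 197 CPM (0.78 ± 0.047, adjusted p = 5.23e-16), with no overlap. Its relative Atf5, which is translated under the same kind of stress control, rose by 0.44 ± 0.058 and Trib3, a pseudokinase that binds AKT and ATF4, by 0.58 ± 0.094. Ddit4, also known as REDD1, restrains the growth kinase mTORC1 (chromosome 10, 59949669 to 59951834, minus strand). It went from 41.4, 44.5 and 48.8 CPM to 334, 405 and 323 CPM, a 7.88-fold rise (2.98 ± 0.12, adjusted p = 3.53e-10) that 0.569% of tested genes exceeded. Chac1, which degrades glutathione and is often used as a marker of ATF4 activity, differed little, with 10.0, 13.1 and 11.8 CPM in vehicle and 13.5 to 14.4 CPM over the libraries at 4 h (0.26 ± 0.11, adjusted p = 0.0424). Its call was lost without vehicle S1 (0.16, adjusted p = 0.259), vehicle S3 (0.27, adjusted p = 0.0688), FSK4h S4 (0.25, adjusted p = 0.0990) or FSK4h S5 (0.28, adjusted p = 0.0591), and with library size alone (0.068, adjusted p = 0.603). Sesn2, a leucine-binding inhibitor of mTORC1 signalling, was not called (0.13 ± 0.062, adjusted p = 0.0678), but it was called higher without FSK4h S6 (0.21, adjusted p = 0.00813). It was also called higher with RLE factors (0.0311), DESeq2 (0.0362) and the 2-group fit (0.0454), adjusted p in parentheses.

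Of the synthesis enzymes, Mthfd2, a mitochondrial folate enzyme, rose most at 4 h. It stood at 58.4, 59.6 and 56.4 CPM in vehicle and 121, 122 and 116 CPM in FSK4h (1.04 ± 0.051, adjusted p = 1.41e-18). Asns, asparagine synthetase (chromosome 6, 7675169 to 7693254, minus strand), went from 78.4, 90.3 and 82.5 CPM to 152, 157 and 147 CPM (0.86 ± 0.061, adjusted p = 2.26e-13). In both genes each FSK4h library was above each vehicle library. Shmt2, the mitochondrial serine hydroxymethyltransferase, rose by 0.56 ± 0.057 and Aldh18a1, which starts proline synthesis, by 0.54 ± 0.050. The serine pathway moved less and unevenly. Its first enzyme Phgdh rose by 0.22 ± 0.061 and its last, Psph, by 0.37 ± 0.082, and neither was called with library size alone (0.026, adjusted p = 0.710, and 0.18, adjusted p = 0.0526). Psat1, between them, was not called (0.072 ± 0.048, adjusted p = 0.201). Pycr1, the last enzyme of proline synthesis, was low in every group, between 2.95 and 5.11 CPM per library, and passed the threshold in none of the 8 comparisons.

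After 1 day of forskolin most of these genes were near their vehicle level. Of the 34, 8 were higher and 3 lower, against 19.5% and 20.7% of all tested genes, and the medians were -0.0018 and -0.019. With library size alone, 7 were called higher and 7 lower. Among the 20 synthetases 1 rose and 2 fell, with a median of -0.043. The split depended on scaling, with 0 higher and 6 lower with library size alone, and 2 higher and 1 lower with RLE factors and with DESeq2. Kars was 131, 134 and 117 CPM against 155, 153 and 144 CPM in vehicle (-0.24 ± 0.051, adjusted p = 2.16e-04), with no overlap. The fall of Sars (-0.14 ± 0.050, adjusted p = 0.0216) was lost without vehicle S1 (-0.13, adjusted p = 0.0807), vehicle S2 (-0.12, adjusted p = 0.0943), FSK1D S7 (-0.13, adjusted p = 0.0817) or FSK1D S9 (-0.12, adjusted p = 0.0968). It was also lost with RLE factors (0.0536) and DESeq2 (0.0614), adjusted p in parentheses. The rise of Tars (0.14 ± 0.050, adjusted p = 0.0287) was lost without vehicle S2 (0.11, adjusted p = 0.151), vehicle S3 (0.14, adjusted p = 0.0615), FSK1D S7 (0.095, adjusted p = 0.193) or FSK1D S9 (0.14, adjusted p = 0.0634), and with library size alone (0.11, adjusted p = 0.0883). Vars (-0.079 ± 0.059, adjusted p = 0.313) was called lower without FSK1D S8 (-0.16, adjusted p = 0.0226), while Dars (0.13 ± 0.053, adjusted p = 0.0576) was called higher without FSK1D S9 (0.15, adjusted p = 0.0420). Dars was also called higher (adjusted p in parentheses) with RLE factors (0.0254), no filter (0.0361), the 1 CPM filter (0.0300), DESeq2 (0.0289) and the 2-group fit (0.0248).

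Of the 6 regulators and effectors, 5 were higher at 1 day and 0 lower, also 0 at an unadjusted p under 0.05 and with DESeq2. Ddit4 was still at 250.5, 297 and 249 CPM (2.57 ± 0.12, adjusted p = 3.01e-09), above every vehicle library. Trib3 had gone up further, to 33.5, 34.7 and 30.1 CPM from 14.7, 20.5 and 17.1 CPM in vehicle (0.91 ± 0.093, adjusted p = 2.32e-09). Atf4 was at 141, 142 and 138 CPM (0.22 ± 0.048). The small rises of Atf5 (0.19 ± 0.058, adjusted p = 0.00836) and Chac1 (0.35 ± 0.11, adjusted p = 0.0100) were both lost without vehicle S1 (0.15, adjusted p = 0.0724 for Atf5 and 0.25, adjusted p = 0.0976 for Chac1). Among the enzymes Mthfd2 (0.60 ± 0.051) and Aldh18a1 (0.28 ± 0.050) were higher. Phgdh, which commits the glycolytic intermediate 3-phosphoglycerate to serine synthesis (chromosome 3, 98313170 to 98339990, minus strand), was the 1 enzyme that fell, to 76.0, 82.3 and 71.7 CPM from 145, 156 and 157 CPM (-0.99 ± 0.063, adjusted p = 1.40e-13). The fall was 1.99-fold, and the libraries did not overlap. Psat1 and Psph, which carry out the next steps, were at -0.0073 ± 0.049 and 0.10 ± 0.084 and were not called.

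**Figure D2:**
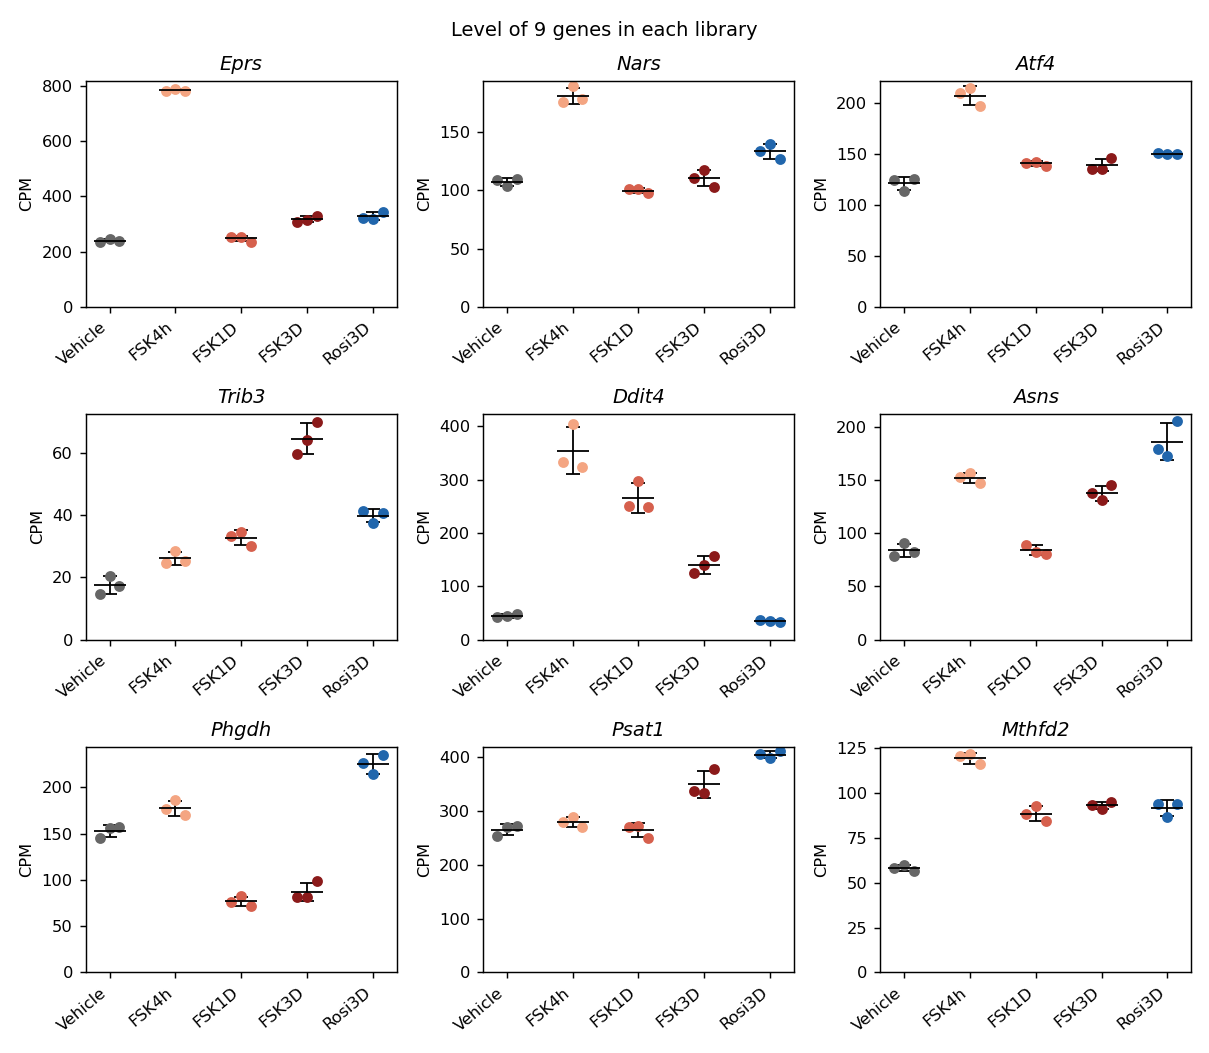
Level in CPM (y axis, from 0) of 9 genes in each of the 15 libraries (points) by group, with the mean (bar) and SD (whiskers) of 3 libraries. Eprs, Nars and Atf4 are highest at 4 h, Ddit4 steps down from 4 h to 3 days, Trib3 steps up to 59.8 to 69.9 CPM at 3 days of forskolin, and Phgdh is low at 1 and 3 days of forskolin but highest with rosiglitazone.

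After 3 days of forskolin the 34 genes were split, with 13 higher and 11 lower, against 25.9% and 27.0% of all tested genes. Their median was 0.045 and that of all tested genes 0.0088. The synthetases made up 9 of the 11 that fell, and only 4 of 20 were higher, with a median of -0.067. Vars fell most, from 189, 186 and 191 CPM to 115, 109 and 131 CPM (-0.67 ± 0.060, adjusted p = 1.28e-10). Kars followed, from 155, 153 and 144 CPM to 105, 97.6 and 108 CPM (-0.54 ± 0.052, adjusted p = 9.07e-11). In both genes every FSK3D library was below every vehicle library. Hars (-0.34 ± 0.078), Rars (-0.32 ± 0.055), Farsa (-0.30 ± 0.063), Iars (-0.30 ± 0.045), Cars (-0.26 ± 0.069) and Sars (-0.25 ± 0.050) fell by less. The fall of Tars (-0.14 ± 0.051, adjusted p = 0.0220) was lost without vehicle S1 (-0.11, adjusted p = 0.121), FSK3D S10 (-0.13, adjusted p = 0.0674) or FSK3D S11 (-0.11, adjusted p = 0.0965), and with no filter (0.0532). Besides Eprs, the higher ones were Gars (0.35 ± 0.045), Wars (0.23 ± 0.056) and Dars (0.19 ± 0.054, adjusted p = 0.00284), and the call of Dars was lost without FSK3D S10 (0.13, adjusted p = 0.0567). Gars and Kars each encode both the cytosolic and the mitochondrial form of their enzyme, and they were called in opposite directions.

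At 3 days of forskolin 5 of the 6 regulators and effectors were higher and 0 lower, also 0 at an unadjusted p under 0.05 and with DESeq2. Of the 8 enzymes 4 were higher and 2 lower. Trib3 (chromosome 2, 152337422 to 152344032, minus strand) reached 59.8, 64.4 and 69.9 CPM against 14.7, 20.5 and 17.1 CPM in vehicle, a 3.72-fold rise (1.90 ± 0.092, adjusted p = 1.46e-16) exceeded by 1.14% of tested genes. All 3 FSK3D libraries were above all vehicle libraries. Ddit4 was at 124, 139 and 156 CPM (1.64 ± 0.12, adjusted p = 1.58e-07), still above vehicle. Atf5 was at 102, 97.2 and 111 CPM against 58.4, 63.9 and 63.7 CPM (0.74 ± 0.058) and Sesn2 at 80.1, 71.1 and 79.6 CPM against 55.3, 54.8 and 52.6 CPM (0.51 ± 0.062). The rise of Atf4 RNA was small (0.20 ± 0.048) and Chac1 was not called (-0.053 ± 0.12, adjusted p = 0.727). Asns went up to 137, 131 and 145 CPM (0.72 ± 0.061), from a 1-day level that overlapped vehicle (0.0023 ± 0.062). Mthfd2 (0.68 ± 0.052), Psat1 (0.40 ± 0.049) and Psph (0.34 ± 0.084) were higher as well. In contrast, Phgdh remained low at 81.5, 81.9 and 98.4 CPM (-0.80 ± 0.063, adjusted p = 1.19e-11) and Shmt2 fell (-0.29 ± 0.059, adjusted p = 1.07e-04). Within the 3-step serine pathway the first enzyme was lower while the second and the third were higher than in vehicle. Pycr1 (0.33 ± 0.20, adjusted p = 0.167) was called higher without FSK3D S11 (0.49, adjusted p = 0.0425), the shallowest library of the series.

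**Figure D3:**
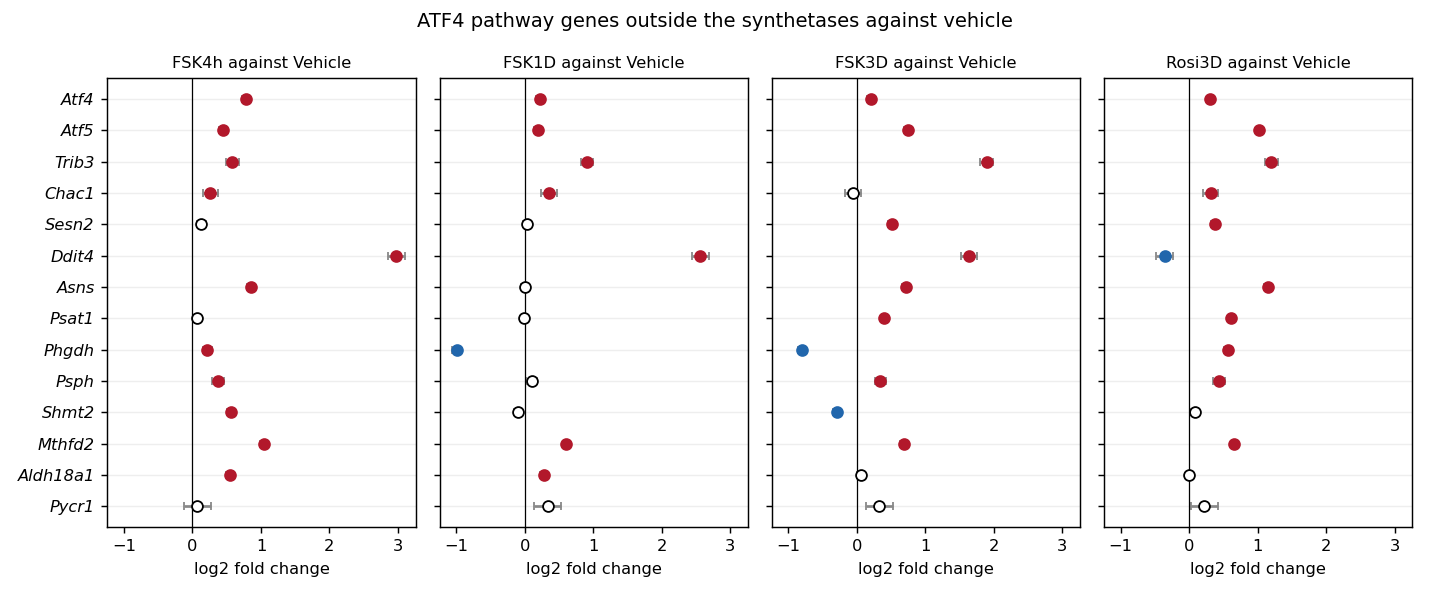
Log2 fold change against vehicle (x axis, error bars ± SE) of the 14 regulators, effectors and synthesis enzymes, with red points called higher, blue called lower and white not called. Ddit4 moves from 2.98 at 4 h to -0.35 with rosiglitazone, Trib3 is highest at 3 days of forskolin, and Phgdh changes side between forskolin at 3 days and rosiglitazone.

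After 3 days of rosiglitazone 17 of the 34 genes were higher than in vehicle and 8 lower, against 28.6% and 32.0% of all tested genes. Their median was 0.23 and that of all tested genes -0.012. Of the synthetases 7 rose and 7 fell. Gars rose most, from 208, 216 and 209 CPM to 346, 325 and 361 CPM (0.71 ± 0.045, adjusted p = 1.69e-15), and led the synthetases per length at 144 ± 7.57 RPKM. Wars (0.50 ± 0.055), Eprs (0.45 ± 0.044), Mars (0.35 ± 0.045), Nars (0.31 ± 0.050), Farsb (0.29 ± 0.058) and Yars (0.24 ± 0.061) also rose. Hars (-0.53 ± 0.077), Vars (-0.53 ± 0.059), Kars (-0.49 ± 0.051), Rars (-0.34 ± 0.054), Qars (-0.27 ± 0.051) and Farsa (-0.25 ± 0.062) fell. The fall of Iars (-0.14 ± 0.045, adjusted p = 0.00743) was lost without vehicle S2 (-0.12, adjusted p = 0.0502) or Rosi3D S15 (-0.10, adjusted p = 0.0705), and with no filter (0.0534). Both treatments at 3 days were set against the same vehicle libraries.

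With rosiglitazone 5 of the 8 enzymes rose and 0 fell, also 0 at an unadjusted p under 0.05 and with DESeq2. Asns was at 179, 173 and 206 CPM against 78.4, 90.3 and 82.5 CPM in vehicle (1.15 ± 0.060, adjusted p = 1.67e-16), with no overlap. All 3 serine enzymes were higher, Phgdh at 227, 214 and 235 CPM (0.56 ± 0.060), Psat1 at 406, 399 and 412 CPM (0.61 ± 0.048) and Psph (0.44 ± 0.082). Mthfd2 rose by 0.66 ± 0.051. Of the regulators, Trib3 (1.20 ± 0.092), Atf5 (1.03 ± 0.057), Sesn2 (0.38 ± 0.061) and Atf4 (0.31 ± 0.047) rose. The rise of Chac1 (0.31 ± 0.11, adjusted p = 0.0141) was lost without vehicle S1 (0.21, adjusted p = 0.127). Ddit4 was the 1 regulator that fell, to 36.7, 35.5 and 32.7 CPM (-0.35 ± 0.12, adjusted p = 0.0272). Its call was lost without vehicle S2 (-0.36, adjusted p = 0.0571), vehicle S3 (-0.29, adjusted p = 0.0905), Rosi3D S14 (-0.36, adjusted p = 0.0546) or Rosi3D S15 (-0.30, adjusted p = 0.109). The summed markers of mature adipocytes were 19195 to 20446 CPM in these libraries, and those of progenitors 383 to 425 CPM.

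Set against each other at 3 days, forskolin and rosiglitazone differed in 19 of the 34 genes. Of these 4 were higher with forskolin and 15 lower, against 22.5% and 20.7% of all tested genes. Phgdh differed most among those lower with forskolin, at 81.5, 81.9 and 98.4 CPM against 227, 214 and 235 CPM, a 2.57-fold difference (-1.36 ± 0.063, adjusted p = 1.11e-16). Of all tested genes 2.76% were called lower by at least 2-fold in this comparison. Asns (-0.43 ± 0.060), Shmt2 (-0.36 ± 0.059), Atf5 (-0.28 ± 0.056) and Psat1 (-0.21 ± 0.048) were lower with forskolin too, as were 9 synthetases by 0.16 to 0.36, among them Cars (-0.36 ± 0.069), Gars (-0.35 ± 0.045), Mars (-0.33 ± 0.045) and Sars (-0.32 ± 0.050). Of these 15, the call of Yars (-0.19 ± 0.061, adjusted p = 0.0130) was lost without FSK3D S10 (-0.17, adjusted p = 0.0606) or FSK3D S11 (-0.14, adjusted p = 0.0975), and that of Chac1 (-0.37 ± 0.11, adjusted p = 0.00852) without FSK3D S11 (-0.27, adjusted p = 0.0695).

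On the other side, Ddit4 was 3.99-fold higher with forskolin (2.00 ± 0.12, adjusted p = 3.84e-08) and Trib3 1.62-fold (0.70 ± 0.086, adjusted p = 7.83e-08), and in both genes the libraries did not overlap. Qars was higher by 0.18 ± 0.052. Hars (0.19 ± 0.080, adjusted p = 0.0476) was on the edge of the threshold and lost its call without FSK3D S10 (0.21, adjusted p = 0.0630), FSK3D S11 (0.12, adjusted p = 0.280), Rosi3D S13 (0.18, adjusted p = 0.138) or Rosi3D S15 (0.18, adjusted p = 0.118). It also lost it with RLE factors (0.0576), no filter (0.0651), the 1 CPM filter (0.0511), DESeq2 (0.0592) and the 2-group fit (0.0724), adjusted p in parentheses, and kept it with library size alone. Eprs (-0.049 ± 0.044), Mthfd2 (0.026 ± 0.051) and Rars (0.013 ± 0.056) were not called. Without FSK3D S12, a further 5 genes passed the threshold. They were Atf4 (-0.15, adjusted p = 0.0144), Vars (-0.23, adjusted p = 0.00267), Lars (-0.13, adjusted p = 0.0447) and Tars (-0.14, adjusted p = 0.0430), lower with forskolin, and Dars (0.14, adjusted p = 0.0469), higher. Dars also passed without Rosi3D S15 (0.14, adjusted p = 0.0494), and Sesn2 without FSK3D S11 (0.18, adjusted p = 0.0255) and with library size alone (0.14, adjusted p = 0.0496). With all libraries kept, Atf4 was called with RLE factors (0.0455), the 1 CPM filter (0.0452) and DESeq2 (0.0453), Vars with RLE factors (0.0485), no filter (0.0199) and the 2-group fit (0.0455) and Lars with DESeq2 (0.0347), adjusted p in parentheses.

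**Figure D4:**
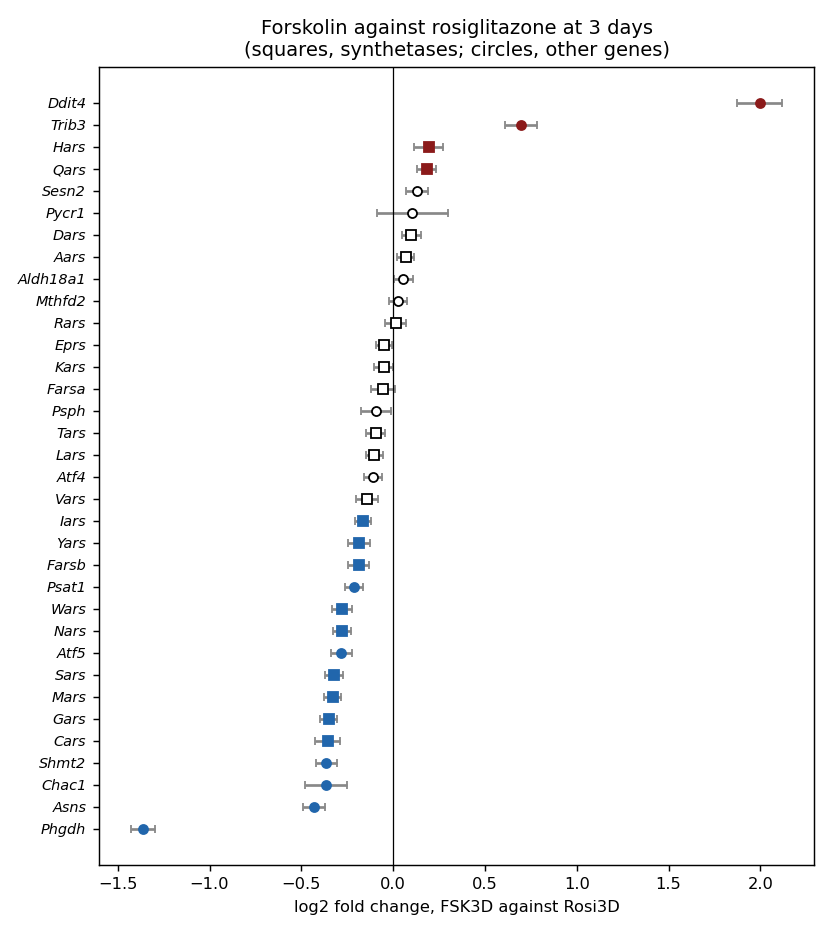
Log2 fold change of FSK3D against Rosi3D (x axis, error bars ± SE) for all 34 genes in order, with red points called higher with forskolin, blue called lower and white not called. Ddit4 at 2.00 and Phgdh at -1.36 lie at the ends, and 9 of the 15 genes called lower are synthetases, as are 20 of the 34 genes drawn.

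The forskolin times were also compared directly. From 4 h to 1 day 26 genes were lower and 1, Trib3, was higher (0.33 ± 0.090), against 28.9% and 28.4% of all tested genes. Those lower included 17 of 20 synthetases, with Eprs at -1.66 ± 0.045, Nars at -0.86 ± 0.050 and Iars at -0.79 ± 0.044, and also Phgdh (-1.21 ± 0.063) and Asns (-0.86 ± 0.061). With library size alone 22 were lower and 3 higher. From 4 h to 3 days 26 were lower and 5 higher, against 33.5% and 35.0% of all tested genes, or 21 and 7 with library size alone. The higher ones were Trib3 (1.31 ± 0.089), Sesn2 (0.38 ± 0.061), Psat1 (0.33 ± 0.049), Atf5 (0.30 ± 0.057) and Dars (0.12 ± 0.054), the last of which lost its call without FSK4h S4 (0.11, adjusted p = 0.119), FSK4h S6 (0.10, adjusted p = 0.138) or FSK3D S10 (0.059, adjusted p = 0.375). The call of Dars was also lost with RLE factors (0.0849), no filter (0.0578), DESeq2 (0.102) and the 2-group fit (0.0616), adjusted p in parentheses. Of these 31 calls 25 held in every alternative tried.

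From 1 day to 3 days 12 genes rose and 12 fell, against 25.2% and 25.8% of all tested genes, and 18 of these 24 calls held in every alternative. Trib3 (0.98 ± 0.087), Asns (0.72 ± 0.061), Atf5 (0.55 ± 0.058), Sesn2 (0.48 ± 0.062), Psat1 (0.41 ± 0.049) and Eprs (0.36 ± 0.044) were among those that rose. Ddit4 (-0.92 ± 0.11), Vars (-0.59 ± 0.060), Chac1 (-0.41 ± 0.11) and Farsa (-0.31 ± 0.063) were among those that fell.

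Other genes of the pathway were counted on the same fit, in lists that, as the 34 genes, are read against the shares of all tested genes. Against vehicle 28.4% of these were called higher and 30.7% lower at 4 h, and 19.5% and 20.7% at 1 day. At 3 days the shares were 25.9% and 27.0% with forskolin and 28.6% and 32.0% with rosiglitazone. They are for the TMM-scaled fit. Among the 20 genes for mitochondrial synthetases and the glutamyl-tRNA amidotransferase, 6 rose and 5 fell at 4 h with a median of -0.13, or 3 and 12 with library size alone. At 3 days 10 rose and 0 fell with forskolin, and 14 rose and 0 fell with rosiglitazone, with medians of 0.23 and 0.32. Both counts of 0 held at an unadjusted p under 0.05 and with DESeq2. Nars2, for mitochondrial asparagine tRNA, was up by 0.65 ± 0.092 and 0.65 ± 0.090, and Iars2 rose by 0.65 ± 0.049 with rosiglitazone. In the list of complex scaffold and tRNA handling genes 4 rose and 2 fell of 7 at 4 h, with a median of 0.46. Those that rose included the scaffold parts Eef1e1 (1.30 ± 0.097) and Aimp2 (0.66 ± 0.074) and the tRNA exporter Xpot (0.70 ± 0.046). At 3 days Aimp2 was below vehicle (-0.68 ± 0.081 with forskolin and -0.48 ± 0.078 with rosiglitazone).

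In the list of eIF2 kinases, eIF2, eIF2B and phosphatase subunits 12 of 20 rose and 2 fell at 4 h, with a median of 0.29, or 9 and 7 with library size alone. The phosphatase subunits that reverse eIF2 phosphorylation, Ppp1r15a (1.28 ± 0.097) and Ppp1r15b (0.98 ± 0.044), rose most, and both were above vehicle at 3 days of forskolin (0.65 ± 0.10 and 0.64 ± 0.044). Eif2ak4, the kinase GCN2 that senses uncharged tRNA, fell at 3 days (-0.62 ± 0.062), when 4 rose and 5 fell in the list. Of 21 other ATF4 targets and partners 9 rose and 5 fell at 4 h, 9 and 7 at 1 day, 13 and 1 at 3 days and 15 and 2 with rosiglitazone. Their medians were, in that order, 0.14, -0.049, 0.49 and 0.44, and with library size alone the first was -0.056, with 9 higher and 9 lower. Atf3 (2.58 ± 0.12) and Nfil3 (2.38 ± 0.096) rose at 4 h. Cth, which makes cysteine from cystathionine, rose at 3 days with forskolin (1.31 ± 0.091) and rosiglitazone (1.58 ± 0.088), and so did Vldlr, a lipoprotein receptor (1.32 ± 0.13 and 1.46 ± 0.13).

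Of 12 amino acid transporters tied to ATF4, 8 rose and 2 fell at 4 h with a median of 0.19, or 5 and 3 with library size alone. The cationic carrier Slc7a1 rose by 1.43 ± 0.055, and Slc3a2 and Slc7a5, which form the carrier of large neutral amino acids, by 1.29 ± 0.050 and 1.17 ± 0.061. Slc7a5 was below vehicle at 1 day (-0.76 ± 0.062) and 3 days (-0.47 ± 0.062), while the cystine carrier Slc7a11 was higher at 4 h, 1 day and 3 days (1.26 ± 0.10, 1.21 ± 0.10 and 1.80 ± 0.10). At 3 days of forskolin 5 rose and 4 fell, with a median of -0.15. Of 16 other folate and glycine enzymes 9 rose and 3 fell at 4 h, or 5 and 6 with library size alone, led by the mitochondrial formate producer Mthfd1l (1.59 ± 0.059). In that list 2 rose and 9 fell at 3 days of forskolin, and the medians were 0.21 and -0.20. The cytosolic Shmt1 fell then (-0.83 ± 0.078) as its mitochondrial relative Shmt2 did, and Aldh1l2 rose (0.74 ± 0.049). Of 13 counted genes for proline, glutamine and aspartate, 5 rose and 3 fell at 4 h, or 4 and 6 with library size alone, and the aspartate aminotransferase Got1 rose most (2.24 ± 0.062). At 3 days of forskolin 4 rose and 4 fell, and the medians were 0.017 and -0.010. Of 11 counted relatives of Sesn2, Ddit4 and Trib3 and other mTORC1 brakes, 1 rose and 8 fell at 4 h, with a median of -0.60. Ddit4l fell (-2.01 ± 0.11) while Ddit4 rose, Sesn1 fell (-1.44 ± 0.082), the mTOR inhibitor Deptor fell (-1.30 ± 0.048) and Trib1 rose (2.15 ± 0.071).

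Some of these genes share exon bases with a neighbour in GENCODE vM21, so their counts may depend on how the authors' counter treated such reads. The authors' annotation is not stated and may lack these overlaps. For Aars the deposited length was 3715 bases, against 9282 exonic bases in GENCODE vM21. Such overlaps in GENCODE vM21 were found for 8 of the 34. The longest stretch was 1326 bases of Aars within Exosc6, followed by 452 bases of Psph within Cct6a, 248 of Farsb within Sgpp2 and 195 of Hars within Hars2. Mars shares 68 bases with Ddit3. Whether the counting used strand is not given in the sources used here. Exosc6 lies on the same strand as Aars, so counting by strand would not separate that overlap.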

How the data were processed

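RNA was taken up in TRIzol and its ribosomal part removed before library making, per the labels' protocols. The submitters' processing notes name fastp, STAR and featureCounts and the build GRCm38 (mm10). Versions, annotation and settings were not stated in the sources used here. The authors' deposited table holds raw read counts per gene. It also holds gene lengths, used here for RPKM. Column headers hold the group with a library number that matches no replicate number of the labels, so each was an unnumbered library of its group, and 0 columns were left unassigned.

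Genes passing filterByExpr (14421) were scaled with TMM (trimmed mean of M values) and tested in R 4.3.3 with edgeR 4.0.16, using the robust quasi-likelihood fit on all 15 libraries (10 residual degrees of freedom), two-sided, with Benjamini-Hochberg adjustment over all tested genes. The SE is the absolute log2 fold change over the square root of F. The deposited gene symbols were placed with GENCODE vM21 (23376 of 24421 matched), and promoters came from RefSeq (GRCm38.p6). On simulated counts for FSK4h against vehicle over 14421 genes, 68% of 50 genes raised 1.25-fold and 100% of 50 raised 2-fold were recovered. Of genes lowered, 80% of 50 changed 1.5-fold and 96% of 50 changed 4-fold were recovered. There were 10 false calls among the 14221 genes left unchanged. Each fold was simulated in a single direction, and only in genes above a count floor. Far more genes were called in the data, so recovery there can differ. Alternatives were RLE factors, library size alone, no filter, a 1 CPM filter, DESeq2 1.42.0, 2-group fits and leaving out each library. The 34 genes and all lists were chosen with earlier results of these data known. Named were all 34, and from other lists at most 4 called genes per comparison with the largest changes.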

Additional observations from a re-analysis of the deposited data

Results flagged for a closer look

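Against vehicle, 10 genes were called higher at 4 h of forskolin and lower at 3 days, and in each the difference between the 2 times was itself called. They are 29.4% of the 34, and 8.61% of all 14421 tested genes showed the same calls. Of the 10, 8 were synthetases, which make up 20 of the 34. The log2 fold change of FSK3D against FSK4h was -0.99 ± 0.045 in Iars, -0.92 ± 0.051 in Tars, -0.86 ± 0.055 in Rars, -0.77 ± 0.068 in Cars, -0.76 ± 0.077 in Hars, -0.71 ± 0.050 in Sars, -0.68 ± 0.051 in Kars and -0.66 ± 0.062 in Farsa. It was -1.02 ± 0.063 in Phgdh and -0.85 ± 0.058 in Shmt2. All these calls and both shares are from the TMM-scaled fit. With library size alone the 4 h calls of Kars (-0.051) and Phgdh (0.026) were lost. That of Kars was also lost without vehicle S3 or FSK4h S4. The 3-day call of Tars was lost without vehicle S1, FSK3D S10 or FSK3D S11, and with no filter. The 2 comparisons with vehicle share the vehicle libraries. No gene of the 34 was called lower at 4 h and higher at 3 days. Beyond leaving out each library in turn, groups of 3 libraries were not examined for single outlying libraries.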

How the results depend on the processing

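Under RLE factors, no filter, the 1 CPM filter, DESeq2, 2-group fits and leaving out each library, every count of higher or lower genes among the 34 stayed within 1.5 times its main value and no called direction reversed. Library size alone moved 3 counts, giving 4 genes lower at 4 h (0 with TMM), 7 lower at 1 day (3 with TMM) and 3 higher in FSK1D against FSK4h (1 with TMM). Counting sign turns in which either value was called, it turned the sign at 4 h against vehicle in Kars (-0.051), Mars (-0.14), Qars (-0.15), Vars (-0.16) and Psat1 (-0.12). It did so for Mars in FSK1D against FSK4h (0.027), and in FSK3D against FSK4h for Gars (0.029), Mars (0.15), Qars (0.054), Wars (0.054) and Asns (0.040). Values called under neither scaling also turned, at 4 h in Dars (-0.12), Sesn2 (-0.063) and Pycr1 (-0.12), in FSK1D against FSK4h in Qars (0.11), Vars (0.054), Sesn2 (0.067) and Psat1 (0.085), and in a further 6 values of other comparisons. The cause of these shifts was not tested. Against vehicle, the calls that held in every alternative were 21 of 27 at 4 h, 7 of 11 at 1 day, 22 of 24 at 3 days and 22 of 25 with rosiglitazone. Over all 8 comparisons there were 1632 single-gene values with a library left out, of which 68 lost their call and 14 gained one. The 1632 include values not called in the main fit, which could only gain a call, and called ones, which could only lose it. No paired analysis was possible because the columns carry no replicate number of the labels. With 3 libraries a group, small changes can be missed. At 4 h 68% of simulated 1.25-fold rises, 80% of 1.5-fold falls and 100% of 2-fold rises were recovered. In that simulation direction differed with size and few genes changed, so recovery in the data can differ.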
